A study of Mus musculus with 10 samples.

Results

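The genes described here are those whose symbols mark them as coding for proteins of the cytosolic ribosome. They were found by symbol in the count table (Rpl or Rps followed by a number, together with Rpsa, Rplp0, Rplp1, Rplp2 and Fau), after Rps6 kinases and rows marked as pseudogenes were dropped, and they number 93 of 18603 genes. Of these, 46 code for proteins of the large subunit and 32 for proteins of the small subunit. A further 6 are paralogs of such genes (Rpl3l, Rpl7l1, Rpl22l1, Rpl36al, Rps27l and Rps4l), and 8 are other copies, most of them retrogenes (Rpl32l, Rpl35rt, Rpl37rt, Rpl6l, Rps27rt, Rps3a2, Rps3a3 and Rps23rg1). The last, Rps19bp1, meets the rule by its symbol but codes for a protein that binds Rps19, and it is kept apart below.

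Ribosomal proteins form, with ribosomal RNA, the subunits that decode messenger RNA and join amino acids. Their messenger RNAs are among the most abundant in growing cells, and many begin with a run of pyrimidines, the terminal oligopyrimidine tract, through which mTOR signalling sets how well they are translated. In cells exposed to viral RNA, translation as a whole can be held back by the double-stranded RNA kinase PKR (Eif2ak2), and unassembled ribosomal proteins such as Rpl5 and Rpl11 can bind Mdm2 and stabilise p53.

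The tissue was whole tumour grown from RENCA, a mouse renal carcinoma line placed subcutaneously in female Balb/c mice, which are the strain of origin and have an intact immune system. Treated tumours received SLR14, a 3pRNA ligand of the RNA sensor RIG-I, in lipid nanoparticles suspended in 50 µL of PBS, and control tumours received PBS, so that the contrast includes the carrier as well as the RNA. Injection began at a tumour volume of 100 to 150 mm3, was given 3 times at intervals of 48 h, and was followed by harvest 24 h after the last dose, with 5 mice in each group. RENCA is a single line and the samples are bulk tissue, in which fewer cells of a type and less RNA per cell cannot be told apart. Markers of renal epithelium (Krt8, Krt18, Pax8, Pax2 and Cdh16) were tested in 5 of 5 cases and summed to 2438 to 3062 CPM in PBS and 2571 to 3106 CPM in treated tumours, where CPM are counts scaled to library size. Within that list Cdh16 had 315 to 409 CPM in PBS and 187 to 294 CPM after SLR14, groups that did not overlap, with a log2 fold change of -0.52 and an edgeR adjusted p of 0.0788, while the list's median log2 fold change was 0.16.

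Start-site sequences are shown because of the pyrimidine tract described for many of these genes. RefSeq start sites on GRCm38.p6 were matched by symbol for 68 of the 93 genes. Each sequence runs from 50 bases before to 25 bases from the start on the sense strand, and capitals mark the earliest run of at least 6 C or T that opens with C, searched from 10 bases before the start. Such a run was present in 37 of the 68 members (54.4%) and in 24.95% of 27025 RefSeq promoters searched in the same way, and the following 4 have it.
Fau (chr19:6057897-6057971, plus strand): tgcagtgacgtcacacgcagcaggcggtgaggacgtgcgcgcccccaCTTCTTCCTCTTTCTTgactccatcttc
Rpl15 (chr14:18270962-18271036, minus strand): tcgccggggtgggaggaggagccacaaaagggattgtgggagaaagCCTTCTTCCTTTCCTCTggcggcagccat
Rpl27a (chr7:109519145-109519219, plus strand): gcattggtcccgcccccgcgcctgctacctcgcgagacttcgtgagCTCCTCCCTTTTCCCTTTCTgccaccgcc
Rps6 (chr4:86857343-86857417, minus strand): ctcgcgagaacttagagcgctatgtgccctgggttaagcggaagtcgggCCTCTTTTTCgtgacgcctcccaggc
The window of Rpl41, the most abundant member per length, and that of Rpl4 hold no such run in the part searched, although Rpl4 has a run of C and T that begins farther upstream. Rpl15, Rpl27a and Rpl4 were chosen for their windows and fall outside the rule for named genes.
Rpl41 (chr10:128549144-128549218, minus strand): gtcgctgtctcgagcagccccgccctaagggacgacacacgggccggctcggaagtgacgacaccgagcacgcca
Rpl4 (chr9:64173337-64173411, plus strand): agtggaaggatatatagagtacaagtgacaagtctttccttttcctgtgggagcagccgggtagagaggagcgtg
The pyrimidine letters CTTTC or CTTCC were present on the sense strand between 10 bases before and 50 after the start in 42 of 68 members (61.8%) and in 18.2% of 27025 RefSeq promoters. The 2 motifs can overlap in a long run. CCGGAAG, the core of ETS family motifs, stood on either strand of the window from 250 bases before to 50 after the start in 35.3% of members and 9.12% of all promoters. GCCATNTT, which holds the YY1 core, stood in 19.1% of members and 6.23% of all promoters in the same search, and TATAAA stood in the 50 bases before the start, sense strand, in 1.47% and 2.88%. A match describes letters only, and annotated starts can differ from those used in the tumours.

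The Rps27 family shows how closely some members resemble each other. Rps27 (4 exons, chromosome 3, minus strand in GENCODE M21) is the small subunit gene, Rps27rt (1 exon, chromosome 9, minus strand) a retrogene and Rps27l (4 exons, chromosome 9, plus strand) a diverged paralog. The opening 120 of 252 coding bases are given, with capitals where a base differs from Rps27.
Rps27: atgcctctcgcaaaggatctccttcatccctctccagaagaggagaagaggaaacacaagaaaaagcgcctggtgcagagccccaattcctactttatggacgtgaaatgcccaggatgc
Rps27rt: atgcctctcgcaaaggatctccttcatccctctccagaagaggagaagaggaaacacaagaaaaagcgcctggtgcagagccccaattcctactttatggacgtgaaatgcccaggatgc
Rps27l: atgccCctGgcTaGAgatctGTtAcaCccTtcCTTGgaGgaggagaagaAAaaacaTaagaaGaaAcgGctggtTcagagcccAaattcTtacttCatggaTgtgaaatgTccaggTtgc
Rps27 and Rps27rt are identical over all 252 coding bases, so a read that lies within them cannot be given to either gene by its sequence. Rps27l differs at 60 coding bases (76.2% identity), and 53 of these are at the last base of a codon. Across the family as a whole, 90 of 93 members share at least 1 stretch of 50 bases with another annotated gene, in each case with at least 1 pseudogene, and the median member shares 51.4% of its stretches of that length. Rpl3l and Rps19bp1 are among those that share none. Values of the members are uncertain to the extent that such reads were split or dropped in counting.

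Total counts per tumour ranged from 17931895 to 39842608. Among the tumours, PBS tumour 5 stood apart in the ribosomal protein genes. The share of counts and the median and direction of the members' fold changes are given with and without it. Fold changes of single genes include it unless stated otherwise. Ribosomal protein genes took 2.04, 2.14, 2.45, 2.22 and 3.78% of the counts in PBS tumours 1 to 5, and 2.33, 2.34, 2.21, 2.25 and 2.09% in SLR14 tumours 1 to 5. The groups overlapped, and PBS tumour 5 lay far above the other 9 tumours. The mean was 2.53 ± 0.716% in PBS and 2.25 ± 0.104% in treated tumours (SD, n = 5 each), and 2.21 ± 0.173% in PBS without tumour 5 (n = 4). The balance of the subunits was far steadier than the share. The counts on large subunit genes were 1.52 ± 0.0288 times those on small subunit genes in PBS and 1.52 ± 0.0208 times in treated tumours (SD, n = 5 each), and PBS tumour 5, at 1.48, had the lowest ratio.

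**Figure D1:**
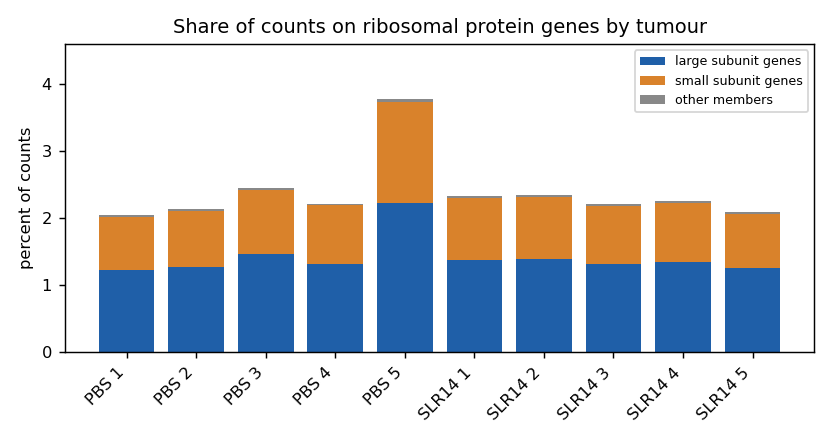
Share of each tumour's counts (percent, y axis) on large subunit, small subunit and other member genes, stacked, for the 10 tumours. PBS tumour 5 reaches 3.78% and the other 9 lie between 2.04 and 2.45%.

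The main comparison asked whether injection of the RIG-I agonist changed the level of any ribosomal protein gene in the tumour. No member was called. Of the 90 members with enough counts to be tested, 0 had an adjusted p under 0.05 in edgeR's quasi-likelihood test, against 153 of 15883 genes tested (0.963%, of which 0.674% were higher and 0.29% lower after SLR14). None was called by DESeq2 (2.19% of genes), limma voom (0.913%), a fit with the replicate number as a block (0.491%) or a fit without PBS tumour 5 and SLR14 tumour 2 (1.33%). The 46 large subunit genes, the 32 small subunit genes, the 6 paralogs, Rps19bp1 and 5 of the 8 other copies made up those tested. Rpl32l, Rpl6l and Rps3a3 did not pass the filter, with 1 to 13 counts in any tumour. The lowest adjusted p of a member was 0.264 in edgeR and 0.159 over all alternative fits.

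At an unadjusted p under 0.05 there were 2 members, Rps23rg1 and Rpl21, beside 10.8% of all genes tested. For no member did the 5 PBS and 5 SLR14 values fail to overlap, against 3.24% of genes tested. The log2 fold changes of the 78 subunit genes ran from -0.40 (Rps10) to 0.19 (Rpl26). The median over the 90 was -0.09, with 66 below 0 and 24 above, beside -0.01 and 52% below 0 for all genes. That lean depended on PBS tumour 5: without it the median was 0.06, 67 of 90 lay above 0, and again none was called (lowest adjusted p 0.202 in edgeR, with 1.2% of genes called). All genes in that fit had a median of -0.003, with 50.8% below 0. Members at an unadjusted p under 0.05 were then 4 in number, Fau (log2 fold change 0.26), Rps19 (0.22), Rpl21 (-0.19) and Rps23rg1 (-0.56). These data limit the size of a change rather than show its absence. The 95% interval of the log2 fold change had a median half-width of 0.31, lay within 0.5 of 0 for 60 of the 90 members and within 1 of 0 for 86, and its farthest bound was 1.196 from 0.

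**Figure D2:**
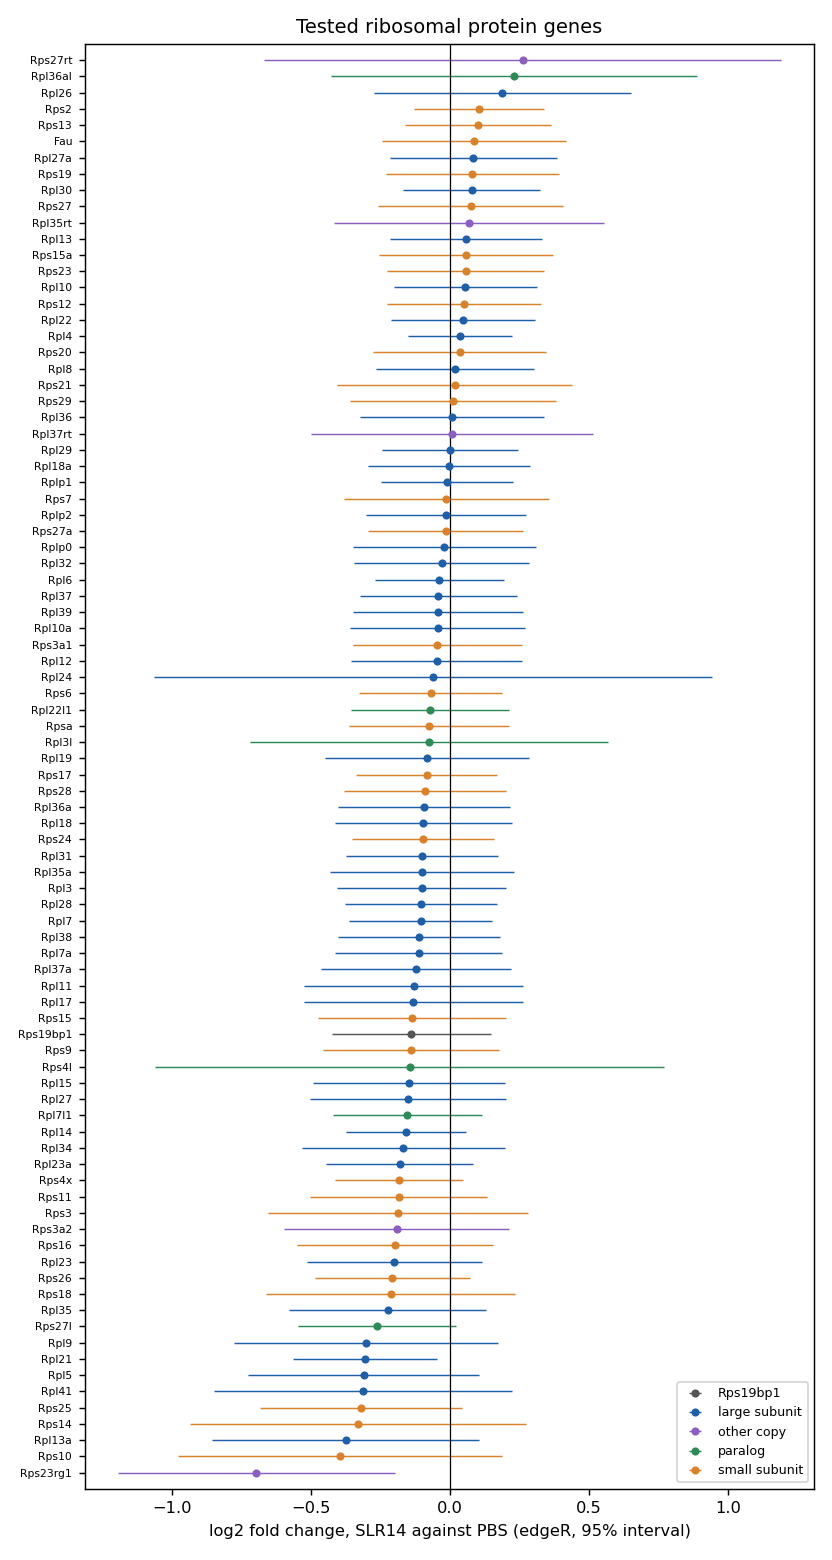
Log2 fold change of SLR14 against PBS (x axis) with its 95% interval for 88 of the 90 tested members (y axis, ordered by fold change), coloured by class. The intervals of 86 of those drawn include 0.

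Among the large subunit genes, 37 of 46 had a fold change below 0 (median -0.09) and 41 were highest in PBS tumour 5. The stalk proteins Rplp0, Rplp1 and Rplp2 recruit elongation factors to the ribosome. Rplp0 averaged 318 ± 82.1 CPM in PBS and 314 ± 27.4 CPM in treated tumours (SD, n = 5 each), Rplp1 256 ± 34.7 and 254 ± 22.1 CPM, and Rplp2 450 ± 81.9 and 445 ± 57.7 CPM. Their log2 fold changes lay between -0.02 and -0.01.

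Rpl5 and Rpl11, which carry the smallest ribosomal RNA of the large subunit and can bind Mdm2, had similar patterns. Rpl5 had 497, 533, 423, 501 and 941 CPM in PBS tumours 1 to 5 and 501, 526, 489, 454 and 363 CPM in SLR14 tumours 1 to 5. Rpl11 had 488, 530, 495, 498 and 975 CPM in PBS and 597, 573, 560, 535 and 463 CPM in treated tumours. In both genes PBS tumour 5 was the highest of all and SLR14 tumour 5 the lowest, and the other tumours of the groups overlapped in Rpl5, while in Rpl11 the other SLR14 tumours lay above the other PBS tumours. The log2 fold change was -0.31 ± 0.19 (SE) for Rpl5 and -0.13 ± 0.18 for Rpl11, with adjusted p of 0.584 and 0.795 in edgeR.

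Rpl13a is known as the protein that leaves the ribosome in interferon-treated myeloid cells to silence some inflammatory messages. It had 14.4, 14.6, 19.2, 12.6 and 31.8 CPM in PBS tumours 1 to 5 and 15.5, 16.1, 13.8, 15.0 and 11.1 CPM in SLR14 tumours 1 to 5. PBS tumour 5 again stood alone and the groups overlapped. Its log2 fold change was -0.38 ± 0.22 (SE, edgeR adjusted p 0.568). Rpl10, which completes the large subunit late in its assembly, averaged 263 ± 39.5 CPM in PBS and 273 ± 30.8 CPM in treated tumours (SD, n = 5 each), a log2 fold change of 0.06. Rpl8, a protein near the peptidyl transferase centre, averaged 929 ± 192 and 941 ± 63.9 CPM, a log2 fold change of 0.02.

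Rpl21 was the large subunit gene with the smallest p. It had 172, 172, 155, 160 and 235 CPM in PBS tumours 1 to 5 and 152, 161, 145, 132 and 132 CPM in SLR14 tumours 1 to 5. SLR14 tumours 1, 3, 4 and 5 lay below every PBS tumour, and SLR14 tumour 2 lay above PBS tumours 3 and 4. Its log2 fold change was -0.31 ± 0.12 (SE), with an unadjusted p of 0.0237 and an adjusted p of 0.371 in edgeR, and it is named after its value was seen. Rpl41, a short basic peptide that bridges the subunits, had 900, 982, 921, 941 and 2335 CPM in PBS and 1013, 1038, 1021, 1086 and 732 CPM in treated tumours. PBS tumour 5 was the highest and SLR14 tumour 5 the lowest of the 10, and the other SLR14 tumours lay slightly above the other PBS tumours. The log2 fold change of Rpl41 was -0.31 ± 0.25 (SE, edgeR adjusted p 0.652). Rpl26, an assembly protein at the exit tunnel, had the highest value of any subunit gene, 0.19 ± 0.21 (SE), from means of 6.56 ± 2.08 and 7.49 ± 1.35 CPM (SD, n = 5 each).

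Among the small subunit genes, 21 of 32 had a fold change below 0 (median -0.08) and 30 were highest in PBS tumour 5. Rps6, the protein whose phosphorylation is the common readout of mTOR signalling, averaged 333 ± 62.8 CPM in PBS and 317 ± 14 CPM in treated tumours (SD, n = 5 each), a log2 fold change of -0.07. Rpsa, also known as the laminin receptor, averaged 693 ± 158 and 657 ± 24.3 CPM, a log2 fold change of -0.08. The ubiquitin fusion gene Rps27a averaged 164 ± 30.4 and 162 ± 19.4 CPM, a log2 fold change of -0.02. Fau, which is made as a fusion of a ubiquitin-like protein with Rps30, averaged 336 ± 91.7 and 356 ± 30.03 CPM, a log2 fold change of 0.09. None of these means differed by more than the spread between PBS tumours.

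Rps14, a protein of the platform of the small subunit, had 450, 549, 480, 482 and 1329 CPM in PBS tumours 1 to 5 and 697, 529, 539, 464 and 386 CPM in SLR14 tumours 1 to 5. Rps3, which lies at the entry of the messenger RNA channel, had 562, 667, 625, 614 and 1381 CPM in PBS and 737, 697, 701, 680 and 565 CPM in treated tumours. In both genes PBS tumour 5 was the highest of the 10. The other PBS tumours overlapped with the SLR14 tumours in Rps14, and in Rps3 they lay below SLR14 tumours 1 to 4. The log2 fold changes over all 10 tumours were -0.33 ± 0.28 (SE) for Rps14 and -0.19 ± 0.22 for Rps3, with edgeR adjusted p of 0.672 and 0.755. Rps25, needed for initiation at some internal ribosome entry sites, had 147, 156, 150, 132 and 272 CPM in PBS and 137, 148, 130, 142 and 130 CPM in treated tumours. Its log2 fold change of -0.32 ± 0.17 (SE, edgeR adjusted p 0.516) had the smallest p of any small subunit gene.

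At the other end of the order, Rps2 averaged 241 ± 35.5 CPM in PBS and 259 ± 14.9 CPM in treated tumours, and Rps13 115 ± 21.3 and 123 ± 8.17 CPM (SD, n = 5 each), with log2 fold changes of 0.10 in each case. Rps19, the gene mutated most often in Diamond-Blackfan anaemia, averaged 172 ± 41.7 and 182 ± 16.3 CPM, a log2 fold change of 0.08. Rps10 had the lowest fold change of the subunit genes, -0.40 ± 0.27 (SE, edgeR adjusted p 0.612). It rested on few counts, 66 to 295 per tumour, with 5.61, 4.22, 8.63, 4.13 and 11.4 CPM in PBS tumours 1 to 5 and 6.19, 3.93, 5.43, 5.71 and 4.48 CPM in SLR14 tumours 1 to 5. PBS tumours 3 and 5 were the highest, and the other PBS tumours fell among the SLR14 tumours. Rps19bp1, also known as AROS, averaged 41.6 ± 9.52 CPM in PBS and 37.8 ± 1.87 CPM in treated tumours, a log2 fold change of -0.14.

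Paralogs can replace the main protein in some ribosomes, and their ratio to the main gene within a tumour needs no scaling between libraries. In 6 pairs both genes were in the table, and the log2 ratio of counts was compared by an exact permutation test, two-sided, with 252 possible assignments of the tumours (smallest p 0.00794) and adjustment over the 6. Rps27l is a p53 target. Its log2 ratio to Rps27 was -0.52, -0.18, -0.64, -0.75 and -0.41 in PBS tumours 1 to 5 and -0.72, -1.11, -0.56, -0.94 and -0.84 in SLR14 tumours 1 to 5. The SLR14 tumours held 4 ratios below all PBS tumours but the fourth, and the groups overlapped. The mean ratio was -0.50 ± 0.219 in PBS and -0.83 ± 0.209 in treated tumours (SD, n = 5), a difference of -0.33 with an exact permutation p of 0.0397 that did not pass after adjustment (0.238). In CPM, Rps27l averaged 32.8 ± 7.20 in PBS and 27.4 ± 1.90 in SLR14 tumours, and Rps27 46.6 ± 10.6 and 49.1 ± 6.93.

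Rpl22l1, which can stand in for Rpl22, had between 57.4 and 76.2% as many counts as Rpl22 in the 10 tumours, not scaled by length. Its transcript is shorter, and per kb of the longest coding transcript Rpl22l1 averaged 108 CPM and Rpl22 45.1 CPM. The log2 ratio of their counts averaged -0.59 ± 0.155 in PBS and -0.70 ± 0.0753 in treated tumours (SD, n = 5, exact permutation p 0.175, adjusted 0.492). Rpl7l1, a factor of ribosome assembly related to Rpl7, had 16.02 to 19.9% of the counts of Rpl7, and its log2 ratio differed by -0.05 between the groups (exact permutation p 0.484, adjusted 0.726, n = 5 each). Per kb in the same way, Rpl7l1 averaged 42.0 CPM and Rpl7 508 CPM. The other paralogs were close to the detection limit. Rpl36al had 12 to 44 counts per tumour, Rpl3l, which replaces Rpl3 in muscle, 7 to 53, and Rps4l 4 to 41, each at most 1.61% of the main gene. Their ratios to Rpl36a, Rpl3 and Rps4x differed by 0.32, -0.10 and 0.03 between the groups (exact permutation p 0.246, 0.857 and 0.952, n = 5 each). The main genes averaged 82.1 ± 18.0 CPM (Rpl36a), 330 ± 81.4 CPM (Rpl3), 459 ± 65.3 CPM (Rps4x), 612 ± 116 CPM (Rpl7) and 90.8 ± 12.1 CPM (Rpl22) in PBS tumours, and 77.0 ± 10.2, 308 ± 20.5, 404 ± 24.3, 569 ± 19.8 and 94.0 ± 13.8 CPM in treated tumours (SD, n = 5 each).

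Of the other copies, Rps23rg1 had the smallest p of all members. It is a retrogene of Rps23 with 15 to 66 counts per tumour. It had 1.32, 1.68, 1.85, 1.83 and 2.56 CPM in PBS tumours 1 to 5 and 0.984, 0.893, 1.04, 1.38 and 1.359 CPM in SLR14 tumours 1 to 5. PBS tumour 1 lay below SLR14 tumours 4 and 5, and the other PBS tumours lay above all SLR14 tumours. The log2 fold change was -0.70 ± 0.23 (SE), with an unadjusted p of 0.00973 and an adjusted p of 0.264 in edgeR. Rps27rt averaged 0.818 ± 0.509 CPM in PBS and 0.987 ± 0.318 CPM in treated tumours (SD, n = 5 each), a log2 fold change of 0.26 ± 0.43 (SE) that was the highest of the 90. As its coding letters above are those of Rps27, which averaged 47.9 CPM over the 10 tumours, reads of Rps27 given to Rps27rt, if there were any, cannot be told apart from its own.

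The clearest pattern among the members lay not between the groups but in PBS tumour 5, the highest of the 10 tumours in 79 of 90 tested members and in 71 of 78 subunit genes, against 28.4% of all genes tested. Relative to the mean of the other PBS tumours, the members had a median of 1.497 times the CPM there, with a range from 1.02 (Rps29) to 2.71 (Rps14), and 45 of 90 were over 1.5 times. Over 2 times were 9 members, among them Rpl41 (2.49), Rpl9 (2.27), Rps3 (2.24) and Rps18 (2.14), while Rpl30 (1.04) and Rpl4 (1.09) were close to the other PBS tumours. Rps29, Rpl9, Rps18, Rpl30 and Rpl4 are named after their values were seen. The lowest tumour was PBS tumour 1 in 34 members and SLR14 tumour 5 in 25. Members with CTTTC or CTTCC at the start site had a median of 1.53 times (41 tested) and those with neither 1.49 times (26 tested).

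**Figure D3:**
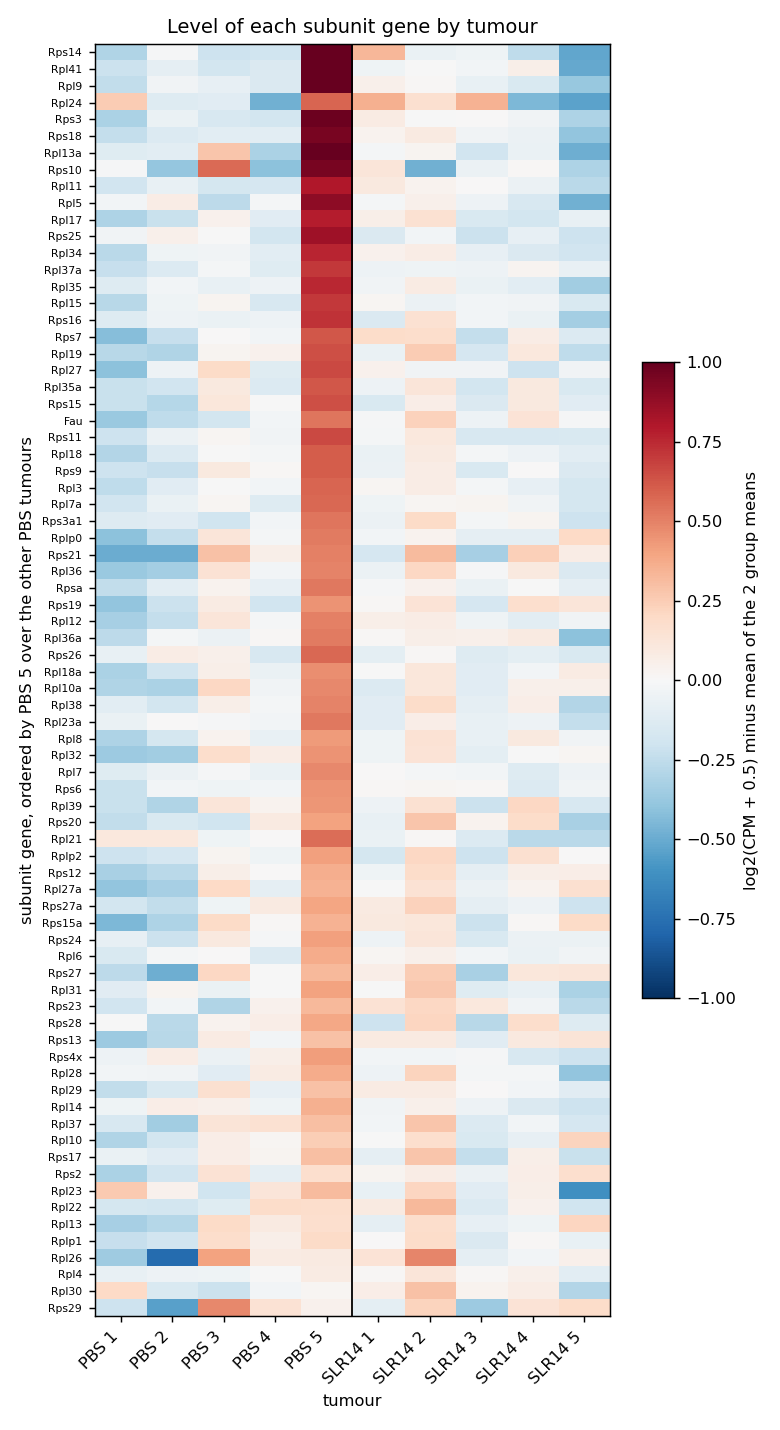
Level of 76 of the 78 subunit genes (rows, ordered by PBS tumour 5 over the other PBS tumours) in each of the 10 tumours (columns), as log2(CPM + 0.5) minus the mean of the 2 group means, with colours saturating at 1. PBS tumour 5 is the highest in 69 of the 76 genes drawn.

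Several other measures moved with PBS tumour 5. Mitochondrially encoded genes took 0.244% of its counts, the lowest of the 10 tumours, where the rest of the PBS group had 0.361 to 0.667%. The 6 erythroid markers (Hba-a1, Hba-a2, Hbb-bs, Hbb-bt, Alas2 and Slc4a1) summed to 173 CPM there, to 54.3 to 63.9 CPM in the other PBS tumours and to 20.9 to 98.3 CPM in treated tumours. Hbb-bs alone made up 110 CPM of the sum in PBS tumour 5, and only 2 of the 6 markers were highest there. Slc4a1, at 13.0 CPM, lay below its value in PBS tumour 3 (14.2 CPM). The 5 fibroblast markers summed to 556 CPM there to 828 to 2617 CPM in the other PBS tumours and to 360 to 1219 CPM in SLR14 tumours. Not all of these markers followed the sum, since Dcn was highest of the PBS group in PBS tumour 5 (8.98 CPM, others 2.00 to 7.36) and Lum, at 4.49 CPM, exceeded 3 of the other 4. Short transcripts were higher in this tumour across the whole table, with a Spearman rho of -0.55 between transcript length and the log2 difference of PBS tumour 5 from the others over all genes with a known length, a description across genes of the same libraries. Members are short, with a median principal transcript of 833 bases beside 2739 for all genes tested.

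The same values by class of length were as follows. Among transcripts of over 500 and up to 1000 bases, the median was 1.52 times the other PBS tumours for 48 members and 1.31 times for 1204 other genes. Among those of over 1000 and up to 2000 bases it was 1.43 times for 23 members and 1.21 times for 3375 other genes, and up to 500 bases it was 1.47 times for 13 members and 1.204 times for 434 other genes. The 5 members of over 2000 and up to 4000 bases had a median of 1.47 times, beside 0.977 times for 5934 other genes. Among the members themselves the Spearman rho with length was 0.0057. Of the genes of the mitochondrial ribosome, which are also nuclear, 68 of 77 were highest in PBS tumour 5, and their median was 1.498 times the other PBS tumours. The part that length, mitochondrial share or cell markers had in the members' levels was not tested.

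**Figure D4:**
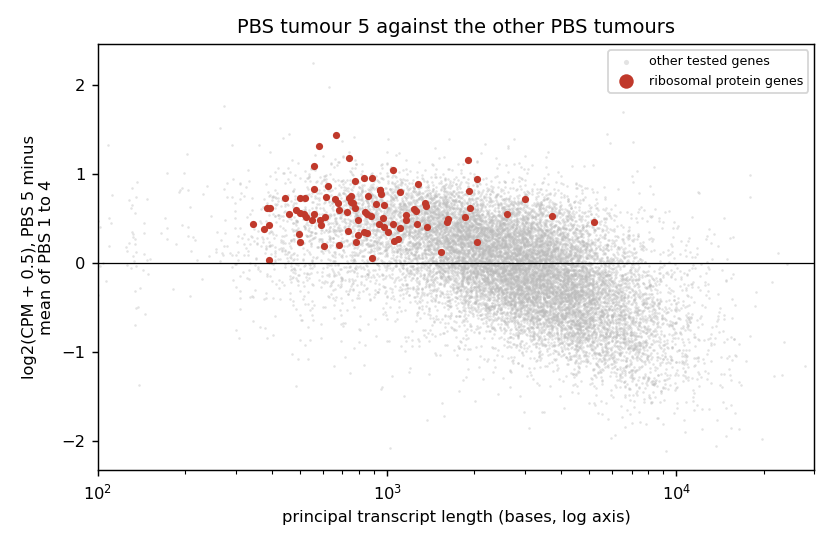
Difference of PBS tumour 5 from the mean of the other PBS tumours, in log2(CPM + 0.5) (y axis), against principal transcript length in bases (log x axis) for tested genes with a known length (grey) and members (red). The members lie above 0 at every length, while other genes are on average above 0 when short and below 0 when long.

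Most proteins of the ribosome are needed in equal number, whereas the counted levels of their genes differed widely. Divided by the length of the longest coding transcript, the median subunit gene had 268 CPM per kb over the 10 tumours. Rpl41 (1885 CPM per kb) and Rpl8 (917 CPM per kb) were the highest, and both kept their places under every length measure tried. At the lower end, 6 subunit genes had under 30 CPM per kb: Rpl24 (0.837), Rps10 (6.74), Rpl26 (10.7), Rpl13a (15.7), Rps15a (21.9) and Rpl29 (27.9). The last 2 of these are named after their values were seen, and the value of Rps15a rests on an annotated transcript of 5179 bases. Rpl24, Rps10 and Rpl26 were the lowest subunit genes under every length measure tried. Rpl24, an otherwise ordinary large subunit gene, had only 5 to 32 counts per tumour. Over all members, the lowest were the copies Rps3a3, Rpl32l and Rpl6l, at 0.245, 0.313 and 0.367 CPM per kb.

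In the GENCODE M21 annotation, 3 of those 6 low subunit genes share over 50% of their exonic bases with another gene on the same strand: Rpl24 (71.5%, with Gm28037), Rpl13a (59.3%, with Gm45713) and Rps10 (53.6%, with the read-through gene RPS10-NUDT3). The only other member with such an overlap is the paralog Rpl36al (63.1%, with Gm49383), which had 0.669 CPM per kb. None of these 4 partner genes has a row in the count table used here. Rpl26, Rps15a and Rpl29 have no such overlap. Rpl29 shares stretches of 50 bases with 81 pseudogenes and Rpl26 with 12. Sharing of this kind was not particular to the low genes, since Rpl21 shares with 81 pseudogenes (87.1 CPM per kb) and Rps2 with 71 (229 CPM per kb). How reads shared between genes were counted is not given in the sources used here. The part of the overlaps and shared stretches in the low levels was not tested. In the other direction, 57 rows marked as ribosomal protein pseudogenes, left out by the rule, held 0.0602 to 0.103% of the counts per tumour, and Rps2-ps10 alone averaged 476 CPM beside 250 CPM for Rps2, neither value scaled by length.

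**Figure D5:**
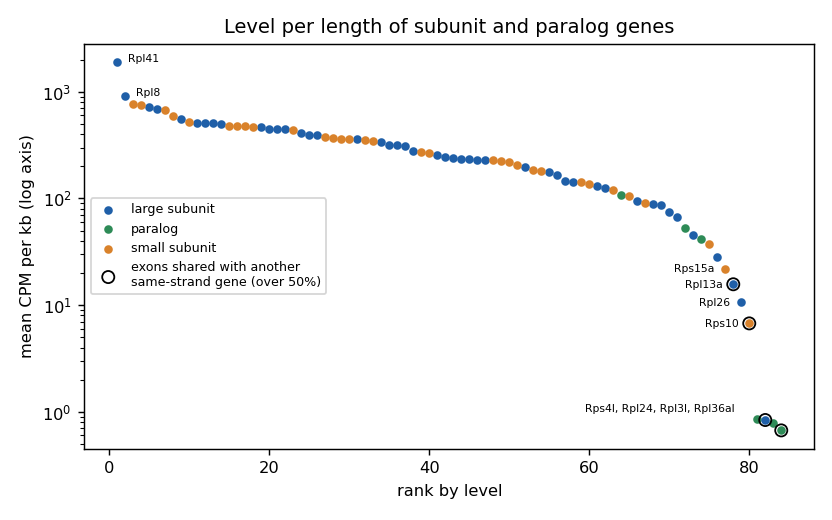
Mean CPM per kb of longest coding transcript (log y axis) of the 78 subunit genes and 6 paralogs, ranked from high to low (x axis) and coloured by class, with rings around the 4 genes that share over 50% of exonic bases with another gene on the same strand. All 4 ringed genes are among the lowest, from 0.669 CPM per kb (Rpl36al) to 15.7 CPM per kb (Rpl13a).

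Genes around the ribosome were described in the same fit. No gene of these lists was called in either direction in edgeR: 0 of 77 genes of the mitochondrial ribosome, 0 of 51 of ribosome making, 0 of 35 initiation factors, 0 of 12 elongation and termination factors, 0 of 23 other messages with a terminal pyrimidine tract, 0 of 19 in mTOR and Myc control, 0 of 10 eIF2 kinases and stress genes, and 0 of 14 in the handling of stalled ribosomes. Their medians lay between -0.11 (elongation factors and the mitochondrial ribosome) and 0.08 (mTOR and Myc control). Unadjusted p under 0.05 were most frequent in ribosome making, with 7 of 51 (10.8% of all genes). Nop10, a core protein of box H/ACA particles, had 12.6, 17.1, 15.6, 13.9 and 28.9 CPM in PBS tumours 1 to 5 and 11.5, 10.4, 10.96, 11.4 and 11.2 CPM in SLR14 tumours 1 to 5. The groups did not overlap, and SLR14 tumours varied little. Its log2 fold change was -0.67 ± 0.19 (SE) with an adjusted p of 0.165 in edgeR, and DESeq2 gave an adjusted p of 0.0446.

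Wdr43, a factor of small subunit assembly, averaged 80.4 ± 6.14 CPM in PBS and 66.6 ± 5.07 CPM in treated tumours (SD, n = 5 each), a log2 fold change of -0.27 (edgeR adjusted p 0.245). Eif2ak2, the kinase PKR and itself an interferon-induced gene, averaged 59.2 ± 11.02 and 74.99 ± 8.33 CPM, a log2 fold change of 0.34 (edgeR adjusted p 0.369). Eif4e, the cap-binding protein, averaged 139 ± 19.1 and 115 ± 9.49 CPM, a log2 fold change of -0.27 (edgeR adjusted p 0.377). Eif2s2, the beta subunit of eIF2, had a log2 fold change of -0.29 (edgeR adjusted p 0.463), and Eif2ak3, the kinase PERK of the endoplasmic reticulum stress response, 0.15 (0.676). Eef2k, which phosphorylates and slows the elongation factor eEF2, had 0.27 (0.542), and the termination factor Gspt1 -0.13 (0.572).

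The nascent chain proteins Naca and Btf3 had the smallest p in edgeR of the 23 other messages with a pyrimidine tract. The median log2 fold change of that list was -0.05, beside -0.09 for the members. Naca had 296, 317, 288, 271 and 503 CPM in PBS tumours 1 to 5 and 281, 289, 275, 248 and 249 CPM in SLR14 tumours 1 to 5. As in the members, PBS tumour 5 was the highest, and the groups overlapped. The log2 fold change was -0.32 for Naca and -0.27 for Btf3, with edgeR adjusted p of 0.482 and 0.496. Mrps11 and Mrpl50 of the mitochondrial ribosome had -0.28 and -0.31 (0.442 and 0.444). Max, the partner of Myc, had 0.17 (0.512), Gcn1, which senses collided ribosomes, 0.29 (0.632), and Map3k20, the stress kinase ZAK that reads stalled ribosomes, -0.16 (0.645). Gcn1 was lowest in PBS tumour 5, with 91.6 CPM there and 225 to 251 CPM in the rest of that group.

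Of the marker lists, only that of neutrophils held called genes, with 3 of 5 tested higher in SLR14 tumours, S100a8 (0.735 ± 0.217 to 3.25 ± 1.58 CPM, SD, n = 5 each) and Mmp8 (0.444 ± 0.147 to 2.49 ± 1.39 CPM) among them. None was called of 4 T cell, 6 macrophage, 5 endothelial, 5 fibroblast, 6 erythroid, 8 skeletal muscle, 5 renal epithelial and 6 proliferation markers tested, nor of the 1 B cell and 1 adipocyte marker tested. Unadjusted p under 0.05 in edgeR were held by 2 of 4 T cell, 2 of 5 fibroblast and 2 of 6 erythroid markers. The renal epithelial and proliferation lists held 1 each. The T cell markers Cd3e and Cd8a had log2 fold changes of 2.57 and 2.15 (edgeR adjusted p 0.0791 and 0.111). Their group means were at most 1.15 CPM. Lum and Dcn had -1.49 and -1.34 (0.239 and 0.325), and the fibroblast list had a median of -0.82. No keratinocyte marker was tested, and the 2 in the table summed to 0 to 1.2 CPM except in PBS tumour 4 (48.4 CPM) and SLR14 tumour 5 (96.2 CPM). The part of cell composition in the members' levels was not tested.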

How the data were processed

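RNA was measured in 10 RENCA tumours, 5 per group by sample title. Per the labels' protocols, ribosomal RNA was depleted, polyadenylated RNA selected and random-primed cDNA sequenced. STAR, the mm39 build, Trim Galore 0.6.7 and DESeq2 1.36.0 were used per the submitters' processing notes. Which program, annotation and strand setting gave the counts is not given in the sources used here. The authors deposited raw counts per gene, and a normalized signal deposited beside them served 1 alternative.

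Genes were filtered with filterByExpr (minimum count 10) and scaled by TMM, and all genes were tested with edgeR 4.0.16 (quasi-likelihood, Benjamini-Hochberg adjustment at 0.05, R 4.3.3), first tested on simulated data. CPM values are TMM-scaled. DESeq2 1.42.0, limma 3.58.1, other scalings and filters, a replicate block and leaving out tumours were alternatives. Total counts, 17931895 to 39842608, set the counting precision. No tumour pair of a group was a duplicate (chi-square per degree of freedom 8.15 to 146, 20 pairs).

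Lengths, exon overlaps and shared stretches come from GENCODE M21 (GRCm38) by Ensembl identifier, not from the authors' build. Ratios used an added count of 0.5. Genes named are the 5 highest and 5 lowest fold changes, the 3 highest and 3 lowest levels per length, all paralogs with their main genes, a fixed set of members, and, by smallest p, 2 genes per translation list. Marker lists are given by counts and sums, with few of the genes that the rule also takes from them. The values of 2 members are not reported here and are left out of 2 plots, though counts over the members include them. The members and gene lists were chosen with earlier results of these data known.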

Additional observations from a re-analysis of the deposited data

Results flagged for a closer look

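In 19 of 96 groups of 5 values examined, the highest or lowest tumour lay farther from the others than Dixon's 95% critical value allows. Chance would flag about 1 in 20 if the groups were independent. They are values of the same tumours, so 1 tumour that differs can flag many groups. The count of 19 therefore cannot be set against that rate. In 13 of the 19 the tumour apart was PBS tumour 5. Rps14 and Rps25 were examined because their fold changes were among the 5 lowest, and a high PBS tumour 5 lowers a fold change. The share of counts on the members was 3.78% there and at most 2.45% in the other PBS tumours. Large subunit genes with PBS tumour 5 apart were Rpl41 (2335 CPM), Rpl11 (975 CPM), Rpl5 (941 CPM), Rpl7 (818 CPM), Rpl3 (472 CPM) and Rpl36a (113 CPM), and the paralog Rpl7l1 (155 CPM). Small subunit genes were Rps3 (1381 CPM), Rps14 (1329 CPM), Rps4x (571 CPM), Rps6 (441 CPM) and Rps25 (272 CPM). In each of these genes it was the highest of the PBS group.

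SLR14 tumour 5 lay below the other SLR14 tumours in Rpl41 (732 CPM, others 1013 to 1086) and Rpl36a (59.0 CPM, others 79.2 to 83.6). Within the SLR14 group, Rps13 was lowest in tumour 3 (109 CPM) and Rps19bp1 highest in tumour 4 (41.1 CPM), while values beyond these occurred among the PBS tumours. The log2 ratio of Rpl36al to Rpl36a was lowest in PBS tumour 4 (-7.42), and that of Rps4l to Rps4x in SLR14 tumour 2 (-10.6), each a ratio that rests on few counts of the paralog.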

How the results depend on the processing

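No member was called in any of the 20 alternative fits (lowest adjusted p 0.159, DESeq2). The median log2 fold change of the members ranged from -0.13 to 0.06 over them, above 0 only in the 2 fits without PBS tumour 5, and the SLR14 minus PBS share of counts from -0.401 to 0.0325 percentage points without 1 tumour. Among 737 values of named genes under alternatives, 61 changed sign, none of a called gene. Of the related genes, Nop10 alone was called by DESeq2 (1 of 228 genes, beside 2.19% of all genes tested), and the other fits called 0. The median subunit gene had 139 CPM per kb by union of exons and 316 CPM per kb by principal transcript, the latter chosen after seeing the data, in place of 268. The paralog difference of Rps27l ranged from -0.40 to -0.25 without 1 tumour (adjusted p 0.143 to 0.476 over all alternatives).

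The values showed no pairing by replicate number (correlation of same-numbered tumours -0.231 to 0.126, and 1 of 10 tumours correlated best with its own number). Such correlations cannot exclude pairing, and the sample titles give only group and number. With the replicate block 0 members were called, beside 78 in place of 153 of all genes. Depth limits Rpl24, Rpl36al, Rpl3l, Rps4l, Rps27rt and Rps23rg1 most among those tested, with 4 to 66 counts in a tumour.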
